A study of Mus musculus with 8 samples.

Results

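The microRNA (miRNA) processing machinery was examined as 9 genes chosen by name: Drosha, Dgcr8, Xpo5, Dicer1, Tarbp2, Ago1, Ago2, Ago3 and Ago4. Each is 1 of the 54658 gene symbols in the count table of RNA-Seq on primary murine articular chondrocytes, the cells of joint cartilage. The donors were wild-type mice, 3 weeks old, and the cells were released from the cartilage of the femoral head and cultured. They received IL-1β, a proinflammatory cytokine linked to osteoarthritis, at 1 ng/mL for 24 h (n = 4), or vehicle (n = 4). No label says whether the samples of a group came from separate mice or cultures, and the p-values measure only the spread between these samples. The counts measure the RNA of these genes, not their proteins and not the mature miRNAs.

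Most miRNAs are made in steps. In the nucleus, the microprocessor, formed by the ribonuclease Drosha and its RNA-binding partner Dgcr8, cuts a hairpin out of a long primary transcript. Exportin-5, the product of Xpo5, carries this precursor to the cytoplasm, where the ribonuclease Dicer, bound to Tarbp2, cuts it to a short duplex. A strand of the duplex is loaded into an Argonaute protein (Ago1 to Ago4), which it guides to target mRNAs. Pairing rests mainly on the seed, bases 2 to 8 of the miRNA. Ago2 can also cleave a target, and cartilage development is known to need Dicer.

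The following mature miRNAs are shown because they bear on the genes below, with the seed in capitals. MiR-146a-5p is the miRNA on which the study centred, miR-140-3p comes from an intron of Wwp2 and is abundant in cartilage, miR-675 comes from the noncoding RNA H19, and miR-1306 lies inside Dgcr8. Sequences and positions are those of RefSeq on GRCm38.p6, with miR-146a-5p at chr11:43374435-43374456 (minus strand), miR-140-3p at chr8:107551288-107551308 (plus strand) and miR-675-5p at chr7:142577112-142577133 (minus strand).
miR-146a-5p: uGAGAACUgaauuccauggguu
miR-140-3p: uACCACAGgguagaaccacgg
miR-675-5p: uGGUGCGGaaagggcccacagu
miR-675-3p: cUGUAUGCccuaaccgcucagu
miR-1306-5p: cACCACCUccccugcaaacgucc
miR-1306-3p: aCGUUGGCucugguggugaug
No pair of these 6 miRNAs shared a seed.

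The IL-1β libraries held 10992355 to 17104351 counts and the vehicle libraries 13970959 to 17456063. Abundances are given as CPM, the count of a gene scaled to a common library total with edgeR's TMM factors, as mean ± SD (n = 4). By the library totals alone, without these factors, 3 counts correspond to 0.172 to 0.273 CPM. A gene entered the test where its CPM exceeded 1 in 4 or more samples. The test was edgeR's quasi-likelihood test with Benjamini-Hochberg adjustment over the 14404 genes entered, and all 9 machinery genes passed this filter. A gene was called at an adjusted p under 0.05. The cells carried the markers of their label: Col2a1 and Acan, which encode the main collagen and proteoglycan of cartilage, were among 8 of 8 chondrocyte markers measured. With IL-1β, all 8 were lower, and their summed abundance was 3710 to 4080 CPM against 14750 to 15321 CPM in vehicle cells. Of 5 genes known to respond to IL-1β, 4 could be tested and all 4 were higher, among them Mmp3 by 5.48 and Nfkbia by 1.89 on the log2 scale. The gene left untested was Il6, which did not pass the CPM filter.

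Between IL-1β and vehicle, 1 machinery gene rose, Ago1, and 1 fell, Dicer1. Ago1 was 19.04% higher with IL-1β, and Dicer1 was 14.4% lower. The other 7 genes were not called, and their fitted log2 fold changes lay between -0.08 and 0.09. Over all genes tested, 2944 (20.4%) were called higher and 2852 (19.8%) lower, and 1 of 9 in each direction was no more than this background. The median log2 fold change of the 9 genes was 0.03, against -0.0012 over all genes tested, and the median size of their change was 0.07 against 0.16. None of the 9 changed by more than 1 on the log2 scale, a size that 751 genes (5.21%) passed with an adjusted p under 0.05. Ago1 and Dicer1 were also the only machinery genes whose 2 groups of samples did not overlap. That was so for 1 gene higher and 1 lower, where 18.7% of all genes tested were without overlap and higher and 18.2% without overlap and lower. In bulk RNA, fewer cells of a type and less RNA per cell cannot be told apart. The fall of the chondrocyte markers went with every comparison below, and its part in them was not tested.

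**Figure D1:**
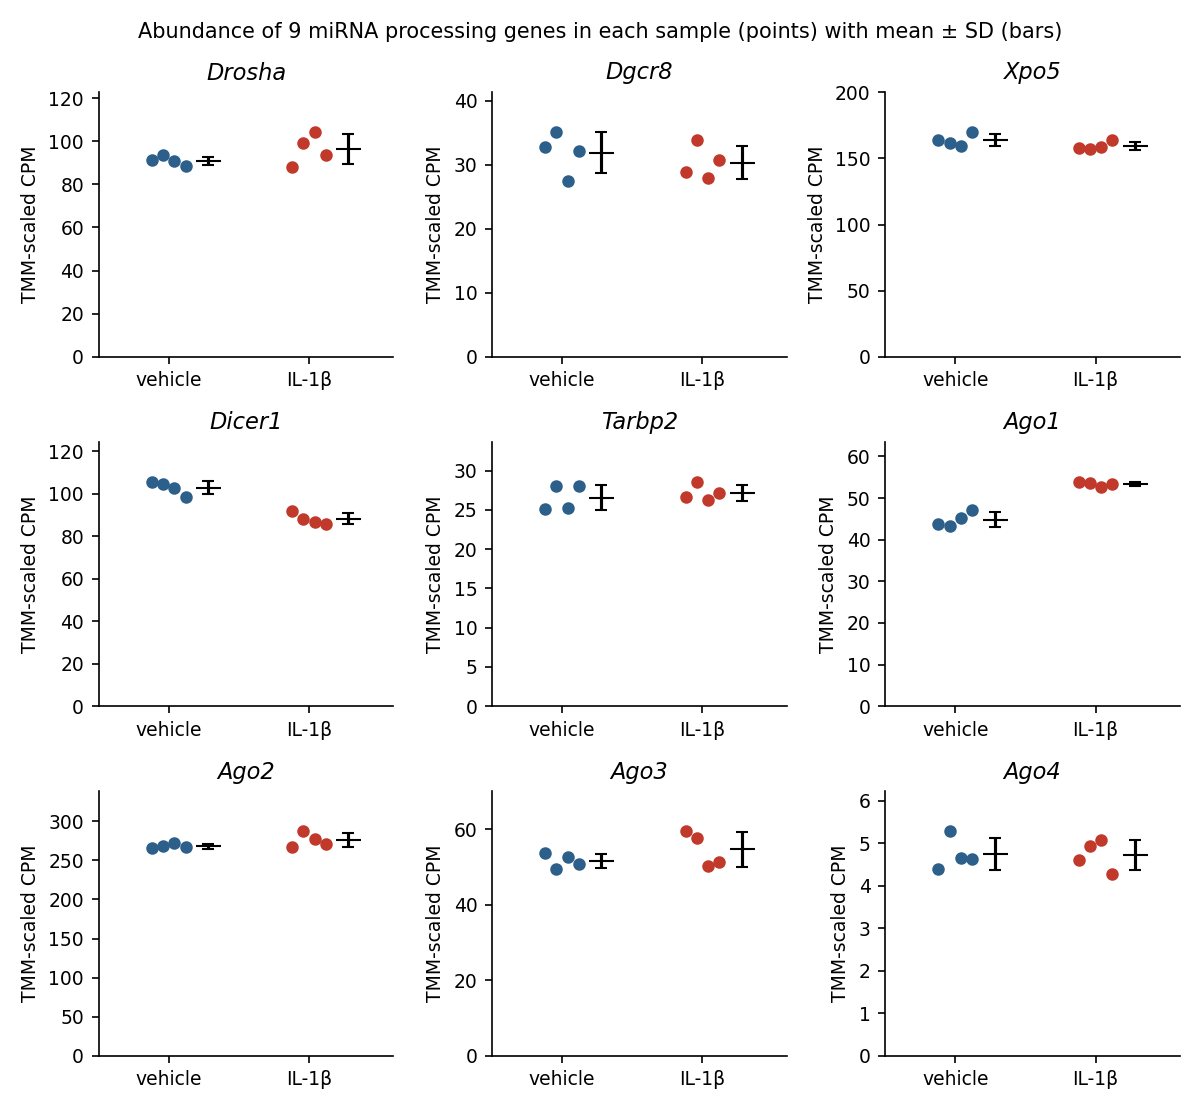
Abundance of each of the 9 miRNA processing genes, as TMM-scaled CPM on an axis that starts at 0, in the 4 vehicle samples (blue) and the 4 IL-1β samples (red), with mean ± SD beside the points. The points of the groups are apart for Dicer1 (lower with IL-1β) and Ago1 (higher) and overlap for the other 7 genes.

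**Figure D2:**
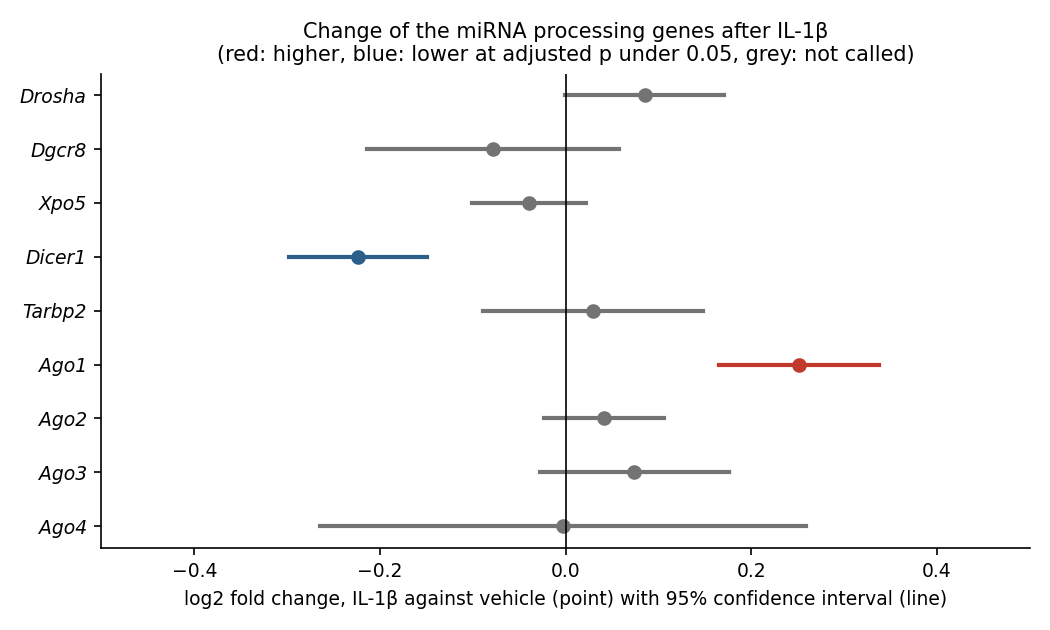
Log2 fold change of each gene with IL-1β against vehicle (points) and its 95% confidence interval from the edgeR fit (lines). Ago1 (red, 0.25) and Dicer1 (blue, -0.22) lie away from 0, the lower bound for Drosha is close to 0, and Ago4 has the widest interval.

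Drosha (ENSMUSG00000022191.16, chr15:12824815-12935291, plus strand, GRCm38) encodes the nuclease of the microprocessor. Its abundance in IL-1β replicates 1 to 4 was 88.1, 99.3, 104.2 and 93.6 CPM. In vehicle replicates 1 to 4 it was 91.2, 93.4, 90.8 and 88.7 CPM. Of the IL-1β samples, 3 lay above every vehicle sample and replicate 1 lay below all of them. The log2 fold change was 0.09 (SE 0.0417), with a 95% confidence interval of -0.00016 to 0.17, and it was not called (adjusted p = 0.108, exact permutation p = 0.2571, two-sided). Without IL-1β replicate 1, the log2 fold change was 0.12 and Drosha was called (adjusted p = 0.0141, edgeR). The coefficient of variation of Drosha was 7.25% with IL-1β and 2.11% with vehicle.

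Dgcr8 (ENSMUSG00000022718.12, chr16:18253948-18289246, minus strand) encodes the partner that recognises the hairpin with Drosha. Its abundance was 30.3 ± 2.62 CPM after IL-1β (28.8, 33.9, 27.9 and 30.7) and 31.9 ± 3.19 CPM in vehicle cells (32.8, 35.1, 27.5 and 32.1). The samples of the groups were interspersed, with vehicle replicate 3 the lowest of all 8. The log2 fold change was -0.08 (95% confidence interval -0.21 to 0.06, adjusted p = 0.384). The miR-1306 hairpin lies on the same strand within a coding exon of Dgcr8, its 5p arm at chr16:18284288-18284310 and its 3p arm at chr16:18284248-18284268. In the annotation, 17.1% of the exon bases of Dgcr8 are shared with other genes, most of them with Trmt2a on the opposite strand. Whether the counting used strand, and how it treated reads in shared bases, is not stated. The Dgcr8 count could hold reads of Trmt2a or lack reads of its own. Of Drosha and Ago2, 1.21% and 1.56% of the exon bases are shared in this way, and the other 6 genes share none.

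Xpo5 (ENSMUSG00000067150.6, chr17:46202782-46243598, plus strand), the gene of the export step, varied little. Its abundance was 158.2, 157.1, 158.7 and 163.6 CPM after IL-1β and 164.3, 161.9, 159.3 and 169.7 CPM in vehicle cells. IL-1β replicates 1 to 3 lay just under the lowest vehicle sample, and replicate 4 lay among the vehicle samples. Xpo5 was not called, with a fitted change of -0.04 on the log2 scale (95% confidence interval -0.10 to 0.02, adjusted p = 0.325) and an exact permutation p of 0.1429.

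Dicer1 (ENSMUSG00000041415.10, chr12:104687742-104751952, minus strand) encodes the nuclease that cuts the precursor. Its abundance was 91.9, 88.2, 86.8 and 85.9 CPM in IL-1β replicates 1 to 4 (1017 to 1457 counts). In vehicle replicates 1 to 4 it was 105.5, 104.5, 102.7 and 98.4 CPM (1436 to 1823 counts). Each IL-1β sample lay below each vehicle sample, and the coefficient of variation was 3.02% with IL-1β and 3.04% with vehicle. On the log2 scale the change was -0.22 (SE 0.0360, 95% confidence interval -0.30 to -0.15, adjusted p = 8.75e-06, edgeR). In percent, this was a change of -14.4%, with an interval of -18.6 to -9.85. The exact permutation p was 0.0286, two-sided, the smallest that 4 against 4 samples allow. Of all genes tested, 37.5% had a larger change in size.

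Tarbp2 (ENSMUSG00000023051.11, chr15:102518192-102523676, plus strand) encodes the double-stranded RNA-binding partner of Dicer. Its abundance was 27.2 ± 1.02 CPM after IL-1β (26.7, 28.6, 26.2 and 27.2) and 26.6 ± 1.65 CPM in vehicle cells (25.1, 28.0, 25.3 and 28.0). The vehicle samples formed 2 levels, with IL-1β replicates 1, 3 and 4 between them and IL-1β replicate 2 above both. A log2 fold change of 0.03 was fitted (95% confidence interval -0.09 to 0.15, adjusted p = 0.734), and its sign was not stable: it was -0.0015 without vehicle replicate 1. Per kilobase of the listed gene length (RPKM), the ratio of Dicer1 to Tarbp2 was 0.883 ± 0.0437 with IL-1β and 1.05 ± 0.0860 with vehicle. The values of the groups did not overlap, and the ratio carries no test. It depends on the length used: over all samples it was 0.965 by the listed length and 0.549 by the longest coding transcript.

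Ago1 (ENSMUSG00000041530.16, chr4:126435012-126468583, minus strand) encodes an Argonaute. Its abundance was 53.9, 53.6, 52.6 and 53.4 CPM in IL-1β replicates 1 to 4 (596 to 882 counts). In vehicle replicates 1 to 4 it was 43.8, 43.2, 45.1 and 47.2 CPM (631 to 756 counts). The lowest IL-1β sample exceeded the highest vehicle sample, and the IL-1β samples were close together, with a coefficient of variation of 1.07% against 3.96% with vehicle. The log2 fold change was 0.25 (SE 0.0419, 95% confidence interval 0.17 to 0.34, adjusted p = 1.42e-05, edgeR), or 19.04% with an interval of 12.2 to 26.4. The exact permutation p was again 0.0286. A larger change in size was found for 33.4% of all genes tested.

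Ago2 (ENSMUSG00000036698.11, chr15:73095844-73184935, minus strand), the Argonaute that can cleave its target, had the highest CPM of the 9 genes. Its abundance was 267.9, 287.2, 277.8 and 270.7 CPM after IL-1β and 265.3, 268.2, 272.4 and 266.6 CPM in vehicle cells. The groups overlapped, although IL-1β replicates 2 and 3 lay above all vehicle samples. Ago2 was not called, with a log2 fold change of 0.04 (95% confidence interval -0.02 to 0.11, adjusted p = 0.322) and an exact permutation p of 0.1714.

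Ago3 (ENSMUSG00000028842.15, chr4:126331704-126429556, minus strand) and Ago4 (ENSMUSG00000042500.11, chr4:126489541-126533472, minus strand) flank Ago1, and the 3 genes lie in a cluster of 201.8 kb on the same strand. For Ago3, the abundance was 54.7 ± 4.57 CPM after IL-1β (59.5, 57.7, 50.3 and 51.3) and 51.7 ± 1.91 CPM in vehicle cells (53.8, 49.6, 52.7 and 50.7). IL-1β replicates 1 and 2 lay above the vehicle samples and replicates 3 and 4 among them. The log2 fold change of Ago3 was 0.07 (95% confidence interval -0.03 to 0.18, adjusted p = 0.253). Ago4 was the least abundant, with 4.72 ± 0.353 CPM after IL-1β and 4.73 ± 0.377 CPM in vehicle cells, or 51 to 91 counts per sample. Its log2 fold change of -0.0027 had an interval of -0.26 to 0.26 (adjusted p = 0.990), which includes a change as large as that of Ago1. Of the 3 clustered genes, Ago1 was called and its neighbours were not. Whether their changes differed was not tested.

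Levels of different genes were compared per kilobase. With vehicle, the order was Xpo5 (23.9 ± 0.649 RPKM), Ago2 (19.1 ± 0.221), Drosha (15.3 ± 0.324), Dicer1 (6.14 ± 0.187), Tarbp2 (5.84 ± 0.362), Ago1 (5.52 ± 0.218), Dgcr8 (4.14 ± 0.414), Ago3 (3.12 ± 0.115) and Ago4 (0.682 ± 0.0542). The sample ranges of Dicer1 and Tarbp2 overlapped, as did those of Tarbp2 and Ago1, and no other neighbours did. With IL-1β, Ago1 (6.57 ± 0.0704 RPKM) stood after Drosha and before Tarbp2 (5.97 ± 0.225) and Dicer1 (5.27 ± 0.159), with no overlap between neighbours. Tarbp2 and the other 6 genes held their places, from Xpo5 (23.2 ± 0.418 RPKM) to Ago4 (0.679 ± 0.0508). The order depended on the length used. The listed length is that of all exons of a gene, and with the length of the longest coding transcript, 3 of the 9 genes kept their rank over all samples: Xpo5, Ago3 and Ago4. The level of Tarbp2, whose listed length is 4549 bases and whose longest coding transcript has 1523, then rose from 5.91 to 17.6 RPKM. Over all samples, Ago1 ranked 4 and Dicer1 ranked 6 by the listed length. By the longest coding transcript, Ago1 ranked 7 (6.79 RPKM) and Dicer1 ranked 5 (9.69 RPKM). Whether Ago1 stood above Dicer1 thus depended on the length used.

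**Figure D3:**
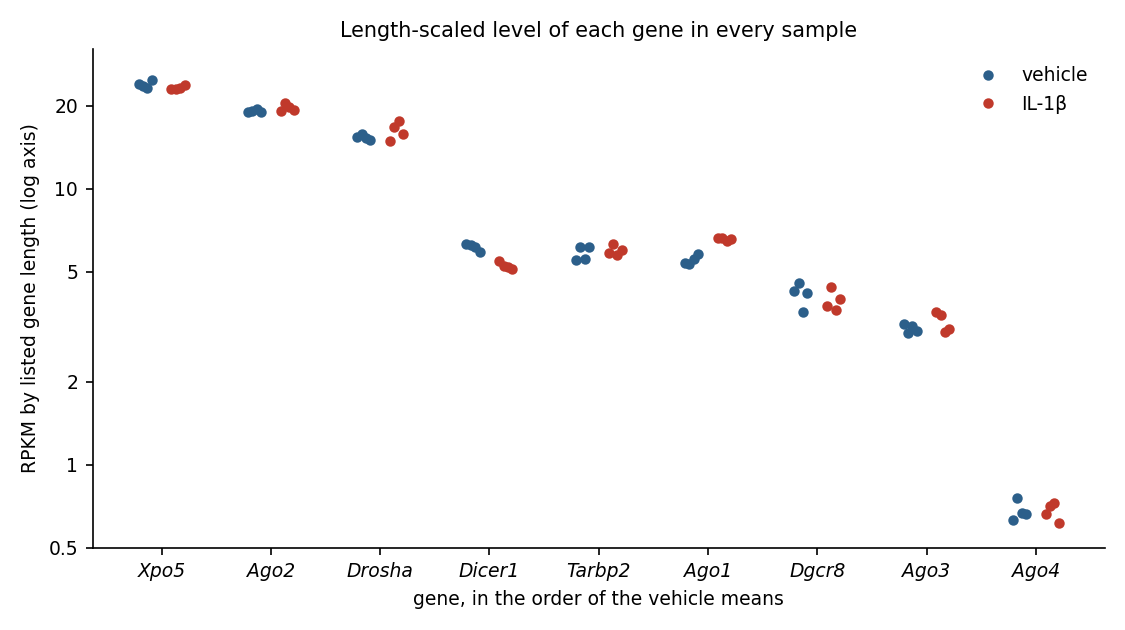
Level of each gene as RPKM by the listed gene length, on a log axis, in each vehicle sample (blue) and IL-1β sample (red), ordered by the vehicle means. Xpo5, Ago2 and Drosha lie above 14 RPKM in all samples, Ago4 lies below 1 RPKM, and with IL-1β the points of Ago1 lie above those of Dicer1.

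Within the Argonautes, Ago2 made up most of the summed RPKM. Its share was 65.1% with IL-1β (63.7 to 65.9%) and 67.2% with vehicle (66.6 to 67.8%). The share of Ago1 was 21.8 ± 0.518% with IL-1β (21.1 to 22.2%) and 19.4 ± 0.655% with vehicle (18.9 to 20.4%). Neither share overlapped between groups. The share of Ago3 was 10.92% and 10.97%, and that of Ago4 was 2.246% and 2.398%, with overlap for both. The 4 Argonautes together reached 30.2 ± 0.729 RPKM with IL-1β and 28.4 ± 0.313 RPKM with vehicle, without overlap. The ratio of Ago2 to Ago1 was 2.99 ± 0.104 with IL-1β and 3.46 ± 0.138 with vehicle. Between the nucleases, the ratio of Drosha to Dicer1 ranged from 2.70 to 3.39 with IL-1β and from 2.44 to 2.54 with vehicle. Within the microprocessor, the ratio of Drosha to Dgcr8 was 4.14 ± 0.470 and 3.73 ± 0.375 and overlapped between groups. All of these are given as a description, without a test, and most of them contain Ago1 or Dicer1. The summed CPM of all 9 genes was 790 ± 14.3 with IL-1β and 785 ± 3.61 with vehicle and overlapped.

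**Figure D4:**
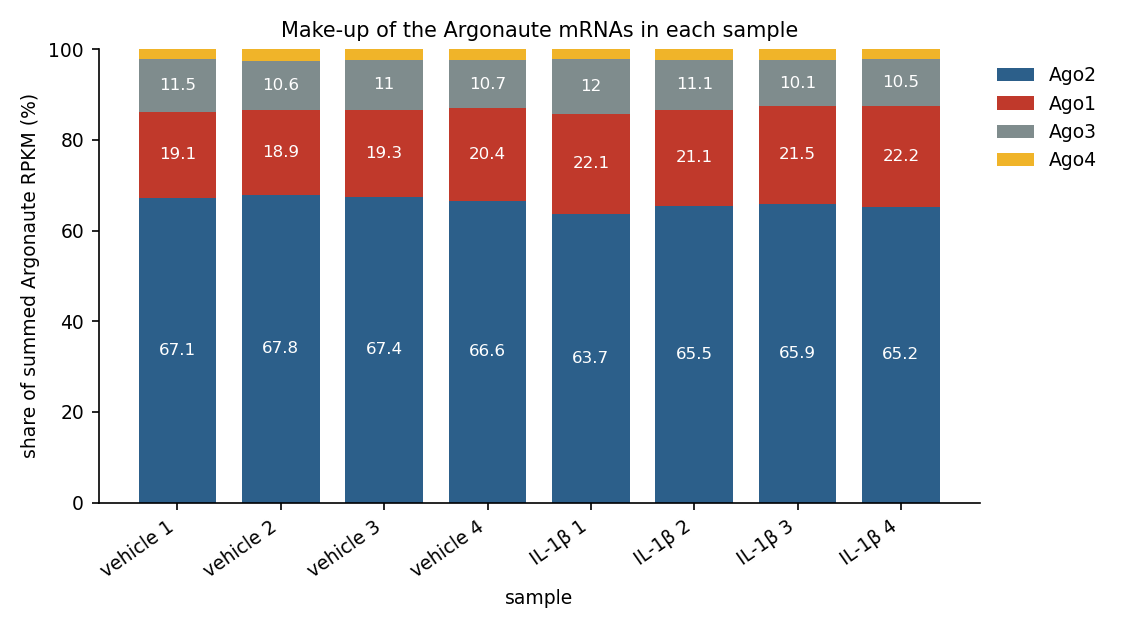
Share of each Argonaute in the summed Argonaute RPKM, in percent, for each of the 4 vehicle and 4 IL-1β samples (stacked bars from 0 to 100%). The Ago1 segment (red) is 18.9 to 20.4% in the vehicle samples and 21.1 to 22.2% in the IL-1β samples.

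The sequences around the Argonaute and Dicer1 genes were read for features that the counts do not use. The seed of miR-146a-5p pairs with the 7 bases AGTTCTC, and an A after them makes a site of 8 bases. In the 3′ untranslated region (UTR) of the longest coding transcript, 2 of the 9 genes held such a site: Ago1 and Ago2. Of the tested genes with a 3′ UTR, 1496 of 11917 (12.6%) did. This share is not matched for UTR length, and a longer UTR offers more places for a match. The UTRs of Ago1 and Ago2 have 4491 and 11064 bases. Those of the 9 genes range from 168 bases (Drosha) to 12742 (Ago3), both without a site. The sites are printed with 10 bases on either side, on the minus strand of GRCm38 and with the site in capitals. That of Ago1 is at bases 3467 to 3474 of its UTR (chr4:126436029-126436036), within the printed stretch chr4:126436019-126436046. That of Ago2 is at bases 4537 to 4543 (chr15:73102365-73102371), within chr15:73102355-73102381.
Ago1: ctagaaatctAGTTCTCAactgcgacat
Ago2: tctgacaagaAGTTCTCcctctctata
A match of letters does not show that a site is used. Ago1 with its 8-base site rose and Ago2 was not called.

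For the genes that changed, the 250 bases before the transcription start of Dicer1 (chr12:104751953-104752202) and Ago1 (chr4:126468584-126468833) are shown from RefSeq (GRCm38.p6, minus strand). Capitals mark matches on either strand to the GC box (GGGCGG) and to CCAAT.
Dicer1: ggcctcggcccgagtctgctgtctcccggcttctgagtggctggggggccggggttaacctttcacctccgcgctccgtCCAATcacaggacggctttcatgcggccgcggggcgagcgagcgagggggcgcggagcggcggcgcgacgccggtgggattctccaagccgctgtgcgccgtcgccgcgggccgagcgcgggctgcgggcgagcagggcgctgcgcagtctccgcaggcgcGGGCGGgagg
Ago1: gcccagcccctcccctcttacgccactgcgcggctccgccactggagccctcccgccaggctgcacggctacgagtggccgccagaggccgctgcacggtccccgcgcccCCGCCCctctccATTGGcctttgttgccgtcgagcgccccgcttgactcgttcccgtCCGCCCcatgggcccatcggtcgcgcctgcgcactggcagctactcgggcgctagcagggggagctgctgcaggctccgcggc
The Dicer1 window held 1 GC box, 1 CCAAT match and 39 CpG, and the Ago1 window shown held 2 GC boxes, 1 CCAAT match and 28 CpG. Another annotated start of Ago1 gave an overlapping window (chr4:126468632-126468881), not shown, with 2 GC boxes, 1 CCAAT match and 26 CpG. The median window of 32851 held 6 CpG. A GC box stood in 32.7% of all windows and CCAAT in 33.8%. No window of the 9 genes held a strict form of the κB letters (GGG, any 2 bases, TTTCC, in 1.41% of all windows). The AP-1 letters TGANTCA (6.75%) and TATAAA (12.4%) were absent as well. Each was searched on both strands. Wider forms of the κB letters were not searched, and the Dicer1 window holds gggattctcc, a similar stretch that the strict form leaves out. An absent match says only that the searched letters are not in the 250 bases.

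Other genes of the pathway were read from lists by role. In 7 lists of partners, effectors, miRNA hosts and relatives, 93 genes were tested. Of these, 17 (18.3%) were higher with IL-1β and 20 (21.5%) lower, close to the 20.4% and 19.8% of all genes. By size, 2 of the 93 were called with a change of more than 1 on the log2 scale: Zc3h12a and H19. Of all genes tested, 751 of 14404 (5.21%) were.

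The partners of the microprocessor comprised 17 genes, of which 1 rose and 5 fell, with a median log2 fold change of -0.03. The rise was that of Srrt, a cap-linked factor of primary miRNA processing, by 0.12 (SE 0.0403, adjusted p = 0.0168). It was not called without IL-1β replicate 3 (adjusted p = 0.0651, edgeR) or without vehicle replicate 2 (adjusted p = 0.0763). The largest falls were those of the RNA-binding proteins Hnrnpa1 and Tardbp. Hnrnpa1 was 525.9 ± 18.0 CPM after IL-1β and 629 ± 30.9 CPM in vehicle cells, which is -0.26 on the log2 scale (adjusted p = 4.62e-07). Tardbp was 143.9 ± 4.33 and 170.2 ± 5.97 CPM, or -0.24 on the same scale (adjusted p = 2.78e-07). Among the export partners, 7 genes that serve or accompany the Ran cycle of nuclear transport, 1 rose and 4 fell, with a median of -0.10. Rcc1, the exchange factor that charges Ran with GTP, was higher by 0.33 (adjusted p = 1.29e-06). Ranbp1 was lower, with -0.25 (adjusted p = 1.02e-05), and so was Xpo1, the main exportin for proteins, with -0.16 (adjusted p = 0.000139).

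Dicer partners and the chaperones that load Argonaute comprised 14 genes, of which 4 rose and 1 fell, with a median log2 fold change of 0.04. Prkra, which encodes PACT, a relative of Tarbp2 that also binds Dicer, was 15.3 ± 1.11 CPM after IL-1β and 13.2 ± 0.941 CPM in vehicle cells. Its log2 fold change of 0.22 was called (SE 0.0823, adjusted p = 0.0335), but not by DESeq2, with no filter on low counts, or without IL-1β replicate 4, vehicle replicate 1 or vehicle replicate 4 (adjusted p = 0.0584 to 0.132). Hsp90ab1, a chaperone of the HSP90 type, was higher by 0.20 (1562 ± 16.2 against 1356 ± 35.6 CPM, adjusted p = 4.26e-07). Tsn, a subunit of the nuclease C3PO, was lower, with -0.11 (adjusted p = 0.0221), although its groups overlapped. The call of Tsn was lost without IL-1β replicate 1 or 3 and without vehicle replicate 1 or 3 (adjusted p = 0.0556 to 0.105, edgeR). Without vehicle replicate 1, 3 genes of this list were called in place of 5.

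Of 30 genes for GW182 proteins and their silencing effectors, 29 were tested, 4 rose and 4 fell, and the median was -0.01. DESeq2 called 5 of them in place of 8. Pabpc1, the poly(A)-binding protein that GW182 proteins contact, was the largest change of the list. It was 2148, 2237, 2408 and 2234 CPM after IL-1β and 1446, 1550, 1543 and 1483 CPM in vehicle cells, a rise of 0.58 on the log2 scale (SE 0.0316, adjusted p = 3.24e-15). All IL-1β samples lay above all vehicle samples. Dcp1b, a cofactor of mRNA decapping, was higher by 0.29 (adjusted p = 0.0238), a call lost with DESeq2, with no filter, and without IL-1β replicate 4 or vehicle replicate 1 (adjusted p = 0.0509 to 0.0835). Cnot6, a deadenylase of the CCR4-NOT complex, was lower, with -0.36 (adjusted p = 1.32e-08), as was the helicase Eif4a2, with -0.21 (adjusted p = 1.42e-05).

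Of 18 genes that modify precursors or turn miRNAs over, 16 were tested, 6 rose and 3 fell, and the median was 0.06. Zc3h12a encodes regnase-1, a ribonuclease of inflammatory mRNAs that has also been linked to precursor cleavage. It was 103.9, 100.9, 106.4 and 100.4 CPM after IL-1β and 5.27, 5.91, 4.79 and 4.22 CPM in vehicle cells, with 64 to 102 counts in the vehicle samples. The groups were far apart, with a log2 fold change of 4.34 (SE 0.0621, adjusted p = 5.05e-29). The RNA editing enzyme Adarb1 was higher by 0.37 (adjusted p = 0.0137) at 7.68 ± 0.970 against 5.96 ± 0.645 CPM, with overlap between groups, and was not called without IL-1β replicate 3 or vehicle replicate 2 (adjusted p = 0.0791 and 0.0594, edgeR). Mettl1, an RNA methyltransferase, was lower with -0.27 (adjusted p = 4.89e-05), and Snd1, a nuclease of edited and other miRNAs, with -0.18 (adjusted p = 6.19e-05). Lin28a and Lin28b, which block let-7 precursors, had 0 counts in every sample.

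Of 20 miRNA genes and host genes, 17 were in the table and 9 could be tested. Of these, 1 rose and 3 fell, with a median of -0.16 on the log2 scale. H19, which holds miR-675, was 34.2, 43.6, 46.7 and 47.3 CPM after IL-1β and 600.0, 616.1, 616.9 and 647.7 CPM in vehicle cells. It fell in all 4 IL-1β samples below every vehicle sample, with a log2 fold change of -3.84 (SE 0.0571, adjusted p = 1.18e-28). Wwp2, the host of miR-140, was 173 ± 1.58 CPM after IL-1β and 304.5 ± 3.56 CPM in vehicle cells, which gave -0.82 on the log2 scale (SE 0.0300, adjusted p = 3.63e-19). Vmp1, next to and overlapping the primary transcript of miR-21, was higher by 0.31 (130.1 ± 5.70 against 104.8 ± 2.03 CPM, adjusted p = 1.74e-08). A host mRNA does not give the level of its miRNA. The Mir146 row itself held 2, 0, 1 and 2 counts with IL-1β and 0 counts in each vehicle sample, all within the limit of 3 counts. The rows Mir140, Mir155 and Mir21a held 0 counts throughout.

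Of 3 PIWI relatives of the Argonautes, Piwil2 alone could be tested, with a log2 fold change of -0.22 that was not called (adjusted p = 0.273). Its unadjusted p was 0.161, so no gene of this list was called by edgeR, with or without the adjustment, and DESeq2 called 0 as well.

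**Figure D5:**
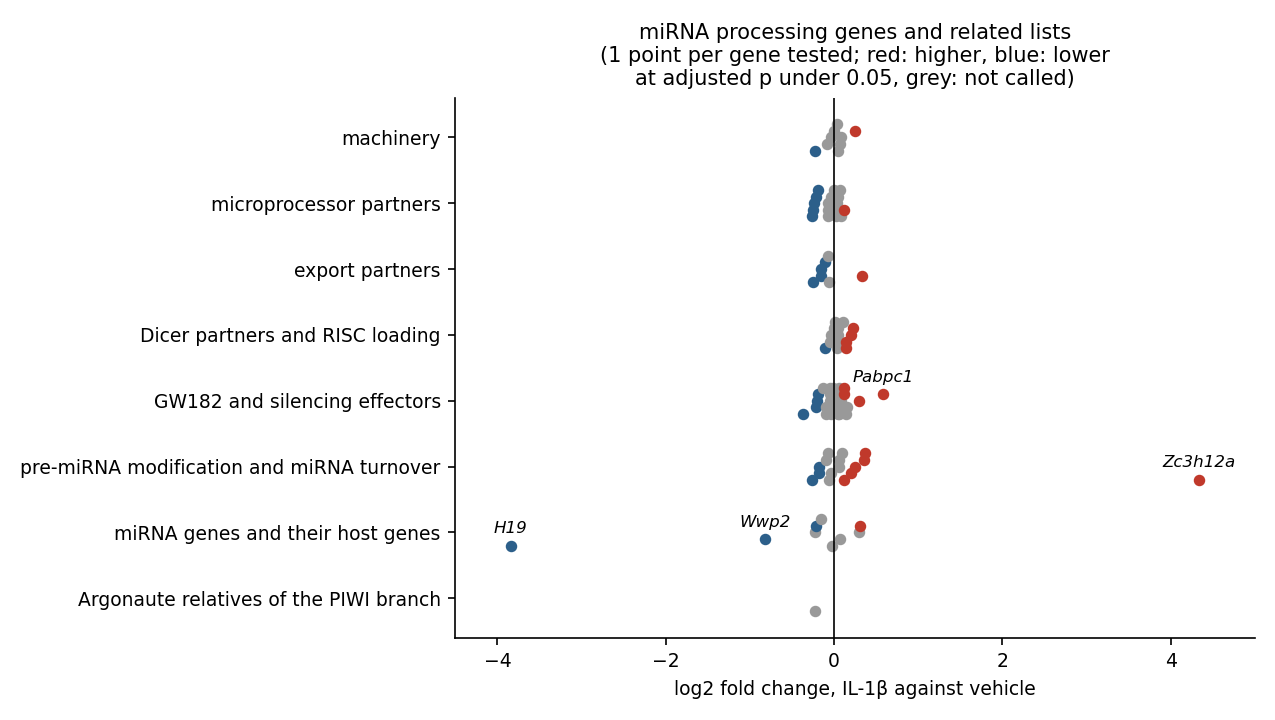
Log2 fold change with IL-1β against vehicle for the 9 processing genes and the 7 related lists, with 1 point per gene tested (red, higher; blue, lower at an adjusted p under 0.05; grey, not called). Most points lie within 0.4 of 0, and Zc3h12a (4.34), H19 (-3.84) and Wwp2 (-0.82) lie furthest out.

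Markers of other cell types had lower summed levels than the chondrocyte markers. The 5 granulocyte and erythroid markers were at or under 3 counts in every sample, and 5 endothelial markers summed to 0.868 to 1.72 CPM over all samples. For 6 macrophage and leukocyte markers, the sum was 30.0 to 33.6 CPM after IL-1β and 14.8 to 16.8 CPM in vehicle cells. Cd68 and Cd14 led this sum and were higher, Lyz2 was lower (1.25 ± 0.226 CPM after IL-1β and 1.87 ± 0.314 in vehicle cells), and Adgre1 was at or under 3 counts in every sample. The sum of 5 fibroblast and synovial markers was 186 to 203 CPM and 170 to 177 CPM, and that of 6 osteoblast and osteoclast markers was 139 to 144 CPM and 142 to 143 CPM. These sums hide opposite changes: the osteoblast markers Ibsp (-3.69 on the log2 scale) and Bglap (-1.62) were lower, and Ctsk (0.30), which leads its sum, was higher. Among the fibroblast and synovial markers, Pdpn (2.26) and Pdgfra (0.58) were higher and Col3a1 (-0.34) lower. The sums of the leukocyte and the fibroblast markers did not overlap between groups, and their part in the values of Ago1 and Dicer1 was not tested.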

How the data were processed

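RNA-Seq counts of 4 IL-1β and 4 vehicle samples were analysed, grouped by their labels. The authors trimmed reads with cutadapt, aligned them to mm10 (GENCODE vM20) with STAR (2.4.2a in the submitters' processing notes, another version in the methods) and quantified genes by featureCounts. The deposited values are counts (whole numbers) per gene symbol, and a length column of the authors (unit: other) was used here for RPKM. Whether RUVseq batch correction preceded the counts, and whether counting used strand, is not given in the sources used here. The table holds 0 further sample columns.

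Counts were tested by edgeR 4.0.16 (quasi-likelihood, TMM, treatment as the only term; limma 3.58.1, R 4.3.3) over 14404 genes whose CPM exceeded 1 in 4 or more samples, with a common biological coefficient of variation of 4.11%. The code was checked on simulated data. Other values used Python 3.11.15, numpy 2.4.6, pandas 2.3.3 and matplotlib 3.10.9. Intervals and the limit of 3 counts (0.172 to 0.273 CPM by library totals, without TMM factors) are stated without molecular identifiers. The limit covers counting error only.

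Positions and lengths came from GENCODE vM21 on GRCm38, where 54000 of 54658 symbols (98.8%) matched 1 gene. All 9 genes were found there, and the miRNAs and promoters in RefSeq.

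Named were the 9 genes, the 2 largest called changes of each list in each direction any beyond 1 on the log2 scale, and the 3 genes most correlated with Ago1 and with Dicer1. The 9 genes and the lists were chosen with earlier results of these data known. Alternatives were DESeq2 1.42.0, its size factors in edgeR, total library size, other filters, a replicate block, 1 factor of unwanted variation, a log2 fold change beyond 1, and each sample left out. The miRNA-Seq and human data of the study were not analysed here.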

Additional observations from a re-analysis of the deposited data

How the results depend on the processing

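Of 435 recomputed log2 fold changes of 29 named genes, 413 kept their direction and side of the threshold, 17 lost the call, 1 gained it and 4 changed sign. Those 17 were of Srrt, Prkra, Tsn, Dcp1b and Adarb1. Of 153 recomputed counts and rank orders, 142 stayed within 1.5 times the reported count or kept all ranks. Ago1 (0.23 to 0.28 on the log2 scale with each sample left out in turn) and Dicer1 (-0.25 to -0.21) were called under every alternative except a log2 fold change beyond 1, with adjusted p up to 0.000223 and 9.71e-05. Over the same 8 fits, the number of called processing genes was 2 to 3, since Drosha (0.046 to 0.12) was called at 0.12 without IL-1β replicate 1. The ranges of the genes not called were -0.14 to -0.029 for Dgcr8, -0.055 to -0.024 for Xpo5, -0.0015 to 0.055 for Tarbp2, 0.024 to 0.056 for Ago2, 0.036 to 0.12 for Ago3 and -0.042 to 0.055 for Ago4. The sign turned for Tarbp2 (-0.0015 without vehicle replicate 1) and for Ago4 (0.0078 and 0.047 without IL-1β replicates 1 and 4, 0.055 without vehicle replicate 2), and neither was called in any fit. The median of all genes (-0.0012) ranged from -0.0041 to 0.0025, and turned to 0.00086 without IL-1β replicate 3 and 0.0025 without vehicle replicate 1. The number of called genes was 5796, 5179 to 5509 with a sample left out, and 4937 to 6114 under the other alternatives without a fold threshold. With a log2 fold change beyond 1, it was 751 genes, with 0 processing genes, 0 microprocessor, export and Dicer partners and silencing effectors, 1 turnover gene and 1 host gene. DESeq2 called 5 silencing effectors in place of 8, and 3 to 5 Dicer partners were called with a sample left out (3 without vehicle replicate 1). A fold threshold leaves fewer calls by construction, and the cause of the other moves was not tested. The order by RPKM kept 3 of 9 ranks with the longest coding transcript.

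Same-numbered samples did not deviate together (r = 0.0353, -0.0462, -0.0127 and -0.0689), so the numbers were not taken as pairs. With the replicate number as a block, 2 processing genes were called, as without it: Dicer1 with -0.22 (adjusted p = 7.29e-06, edgeR) and Ago1 with 0.25 (adjusted p = 4.74e-05). Depth limits Ago4 most, at 51 to 91 counts.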

Other observations

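Across the 8 samples, the genes whose log2 CPM followed that of Ago1 most closely were Prdx2, an antioxidant peroxiredoxin (Pearson's r = 0.996), Pign, an enzyme of GPI anchor synthesis (0.991), and Gm12867 (0.990). For Dicer1 they were the RNA helicase Ddx5, itself a partner of the microprocessor (0.996), Tmeff1 (0.995) and Fam129a (0.991). Between Ago1, called higher, and Dicer1, called lower, r was -0.958. With both groups pooled, opposite changes between the groups give such a value by themselves. Correlation within a group was not examined for any of these genes. These values describe 8 libraries in 2 groups, share library and depth, and carry no p. Their number of samples is small beside the 14404 genes compared.

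The Mir155hg row, the host transcript of miR-155, held 4, 3, 14 and 4 counts with IL-1β and 3, 3, 4 and 4 counts with vehicle, and was too low to test. Dixon's ratio was used to look for a lone distant sample in 60 groups of 4 values, those of the named genes and of the library totals. Of these, 0 passed its 95% critical value, where chance gives about 1 in 20, or 3. Raw counts over all tested genes were also compared between samples, as chi-square per degree of freedom. Vehicle replicate 4 differed most within its group, with 6.34 and 6.24 against vehicle replicates 1 and 2 and 2.75 against replicate 3. The other pairs within a group gave 1.98 to 3.26, and the cause was not tested.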
